A study of Mus musculus with 2 samples.

Results

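The genes described here are the protein components of the cytosolic ribosome, taken as every row of the gene expression table whose symbol starts with Rps or Rpl and a digit, with the Rps6k kinases left out. The rule found 88 of 15416 genes. Of these, 73 encode ribosomal proteins, 30 of the small and 43 of the large subunit. A further 7 are paralogs or retrogenes of such proteins (Rpl22l1, Rps27l, Rpl39l, Rpl3l, Rpl7l1, Rpl36al and Rps27rt), 7 are pseudogene rows and 1, Rps19bp1, encodes a protein that binds Rps19. The rule left out 9 kinase rows, and ribosomal proteins with other kinds of symbol, such as Rpsa, Rplp0 and Rplp1, fell outside it. Rps4l and Rpl10l were looked for and had no row.

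Droplet single-cell transcriptomes were collected from cells that bore CD45 and JAML and were sorted from the tumours of 3 mice. JAML is a surface receptor that can costimulate T cells. The hashtags, antibody-borne barcodes that mark the mouse of origin, name B16F10, a mouse melanoma line, and an isotype control antibody for all 3 mice, so there is 1 experimental group and every comparison sets one kind of cell against another inside a mouse. Strain, sex and age are not given in the sources used here. One label field calls the sorted cells T cells and another uses the word TREG, and the annotation's species column reads Human where the labels give mouse. However, the T cell genes Cd3d, Cd3e, Cd3g, Trac and Trbc2 were high only in the 8 subclusters of the authors' Cd3g and Pdcd1 clusters: Cd3e ranged there from 329.9 (subcluster 3) to 709.4 (subcluster 1) CPM (UMIs per 1000000 UMIs of the class), against 5.09 (subcluster 0) to 25.2 (subcluster 12) CPM in the other 8.

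A ribosome joins a small subunit, which reads the messenger RNA, to a large subunit, which forms the peptide bond, and each canonical ribosomal protein is normally present once per particle. Messages of ribosomal proteins commonly begin with a cytosine followed by a run of pyrimidines, the terminal oligopyrimidine (TOP) motif, through which nutrient and growth signals acting on mTORC1 control their translation. T cells enlarge their translation machinery when they are activated, and naive and memory cells hold many of these messages in a poorly translated state. RNA levels, as measured here, do not report translation.

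Promoters were compared because members that were abundant together still differed in how their shares moved between cell types. A RefSeq window (build GRCm38.p6) was held for 62 members, 54 of them ribosomal proteins. A C followed by at least 6 pyrimidines, read on the gene's strand within 70 bases before to 30 bases after the annotated start, was found for 70.4% of the ribosomal proteins, against 44.9% of all 27025 genes with a window. The ETS motif CCGGAAG, read on both strands of the whole 300-base window, was found for 40.7% of ribosomal proteins, against 9.93% of all genes. The YY1 motif AAGATGGC, read in the same way, was found for 9.26%, against 3.19%. The stretches given are the starts of 4 of the 8 members with the widest range of their share within the module between subclusters: Rpl31 (chr1:39367781-39367880, plus strand), Rps27 (chr3:90213619-90213718, minus strand), its paralog Rps27l (chr9:66946016-66946115, plus strand, the upstream of 2 windows) and Rpl10 (chrX:74270746-74270845, plus strand). Capitals mark pyrimidine tracts and the ETS motif. Matches are letters in a window and say nothing about use of the site.
Rpl31: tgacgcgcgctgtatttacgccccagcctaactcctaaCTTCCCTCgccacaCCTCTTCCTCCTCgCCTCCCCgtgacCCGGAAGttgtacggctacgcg
Rps27: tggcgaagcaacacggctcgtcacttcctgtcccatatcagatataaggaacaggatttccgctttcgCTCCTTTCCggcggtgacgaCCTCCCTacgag
Rps27l: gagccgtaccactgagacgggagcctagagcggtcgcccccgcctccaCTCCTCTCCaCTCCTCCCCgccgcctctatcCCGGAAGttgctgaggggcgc
Rpl10: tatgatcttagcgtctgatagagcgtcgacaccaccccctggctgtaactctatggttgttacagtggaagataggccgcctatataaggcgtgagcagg
The Rpl31 and Rps27l windows hold both an ETS motif and pyrimidine tracts, the Rps27 stretch shown holds tracts only, and the Rpl10 stretch shown holds neither.

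The 88 genes gave 23668649 of 103155608 UMIs (unique molecular identifiers, one per captured transcript), 22.9% of all counts. Single cells ranged from 2.17 to 52.2% with a median of 22.6%, and the 3 mice gave 22.97, 22.2 and 23.4%. The authors' own ribosomal percent per cell lay within 0.145 percentage points of the value computed here, and within 0.0622 points with the kinases added. Because the chemistry reads the 5' end of each message, a UMI stands for 1 molecule whatever the gene's length, and levels can be set side by side on that scale. The 78 mitochondrial ribosomal proteins, whose symbols fall outside the rule, gave 0.577% of UMIs.

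The module was led by Rps24, at 6167 CPM over all cells, followed by Rpl13 (5875), Rpl23 (4905), Rpl32 (4903) and Rps16 (4776). The 73 ribosomal proteins spanned 402.8 to 6167 CPM with a median of 3192 CPM, and the 10 highest genes gave 21.5% of the module. At the other end stood the pseudogene rows Rpl9-ps6 (7.48 CPM), Rpl7a-ps5 (1.39) and Rpl13a-ps1 (1.34) and the paralogs Rpl39l (1.82) and Rpl3l (1.21), with 125 UMIs of Rpl3l in the whole table. The paralogs, pseudogenes and Rps19bp1 together gave 0.781% of the module's UMIs. Rps27rt, Rpl36al and the pseudogene rows share long near-identical stretches with Rps27, Rpl36a and their parents, and how reads that match several places were counted is not given in the sources used here, so their split is uncertain.

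T cell-like and natural killer cell-like subclusters carried more of this module than the dendritic cell-like and macrophage-like ones. All 8 subclusters of the Cd3g and Pdcd1 clusters lay above all 8 others in every mouse with at least 10 cells: their lowest value was 24.7% of UMIs, and the highest of the others was 21.6%. Subcluster 10 stood highest, with 39.3, 39.2 and 40.8% in mice 1 to 3 (39.8 ± 0.91%, SD, n = 3, 129 cells). Subcluster 3, which carried the natural killer receptor gene Ncr1 at 208 CPM, followed with 30.7 ± 0.79%. Subclusters 5, 7, 1, 15, 14 and 8 then ran from 29.1 ± 1.65% down to 25.1 ± 0.39%. The lowest was subcluster 2, macrophage-like by its complement genes C1qa, C1qb and C1qc, with 16.9, 15.96 and 17.0% (16.6 ± 0.58%). The highest mean was 2.39-fold the lowest.

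**Figure D1:**
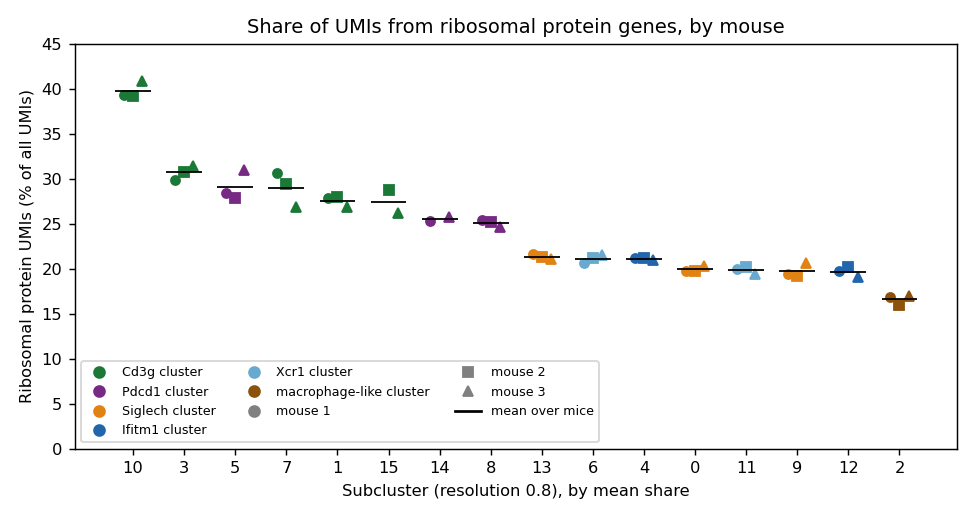
Percent of UMIs from the 88 ribosomal protein genes (y axis) in each of 16 subclusters (x axis, ordered by mean share, coloured by the authors' cluster), with 1 symbol per mouse and a bar at the mean. Subcluster 10 lies near 39.8% in all 3 mice, the other subclusters of the Cd3g and Pdcd1 clusters between 24.7 and 31.5%, and the remaining ones at or under 21.6%.

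Most neighbours in this order could not be separated: 10 of 15 neighbouring pairs overlapped between mice, and 5 did not (10 over 3, 15 over 14, 8 over 13, 4 over 0 and 12 over 2). Subclusters 14 and 15 had values in 2 mice only. The SD over mice had a median of 0.581 points, against an SD of 5.86 points between subcluster means. Depth moved with the share: inside subcluster and mouse, the rank correlation of a cell's share with its total UMIs was positive in 42 of 46 groups (median 0.20, from -0.10 to 0.57). Median depth was 8550 to 12526 UMIs per cell in the subclusters of the Cd3g cluster and 21106.5 to 27482 in those of the Pdcd1 cluster. In the remaining subclusters it ran from 12510 (subcluster 9) to 33710 (subcluster 11), with 19798 in subcluster 2. The part of depth in the order of subclusters was not tested. The balance of the subunits was nearly level. Small-subunit UMIs were 0.917 ± 0.0075 of large-subunit UMIs in subcluster 10 and 0.846 ± 0.0053 in subcluster 5, the ends of the range.

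The subclusters were built on these cells with these genes among the input, so differences between them are descriptions without a test; an exact sign-flip test over 3 mice could not go below 0.25. When cells were clustered again without the members, 83.8% of cells fell in the matching subcluster. Each new cluster was matched to the subcluster that gave most of its cells. Of the 16 subclusters 13 had a matching cluster, and subclusters 7, 9 and 10 had none of their own. The tool and settings also differed from the authors', and no such clustering was run with the members kept. The loss of these subclusters can therefore not be tied to leaving out the members. Subcluster 7 had 259 and 57 of its cells in separate clusters that were both matched to subcluster 1. Subcluster 9 had most of its cells in the clusters matched to subcluster 0. Of subcluster 10, 94 of its 129 cells joined a cluster of 268 cells with a share of 34.6 ± 2.21% (SD, n = 3), whose remaining cells had 29.5 ± 1.36%. That cluster was matched to subcluster 1, which gave 100 of its cells.

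By gene, 65 of the 73 ribosomal proteins had their highest mean level in subcluster 10 and 53 had their lowest in subcluster 2. These subclusters were ranked highest and lowest by the sum of the same genes, so the counts are no separate evidence. No such count was made over all genes. A ribosomal protein's highest subcluster was 1.55 to 3.96 times its lowest, with a median of 2.39. Rps24, a small-subunit protein, had 12499, 11422 and 13327 CPM in subcluster 10, against 4088, 3845 and 4116 CPM in subcluster 2.

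A smaller set of genes departed from the shared rise and fall. Each gene was expressed as its share of the module, among 79 members with at least 50 CPM over all cells and 14 subclusters with 10 or more cells in every mouse. A ribosomal protein's highest share was 1.36 times its lowest at the median; 21 of 73 passed 1.5-fold and 3 passed 2-fold. The 8 members with the widest range were Rps27l (11.04-fold), Rpl31 (5.15-fold), Rpl7l1 (4.45-fold), Rpl36al (2.88-fold), Rpl10 (2.76-fold), Rpl10-ps3 (2.75-fold), Rps19 (2.25-fold) and Rps27 (1.99-fold). Paralogs and a pseudogene fill the list beside the ribosomal proteins Rpl31, Rpl10, Rps19 and Rps27.

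**Figure D2:**
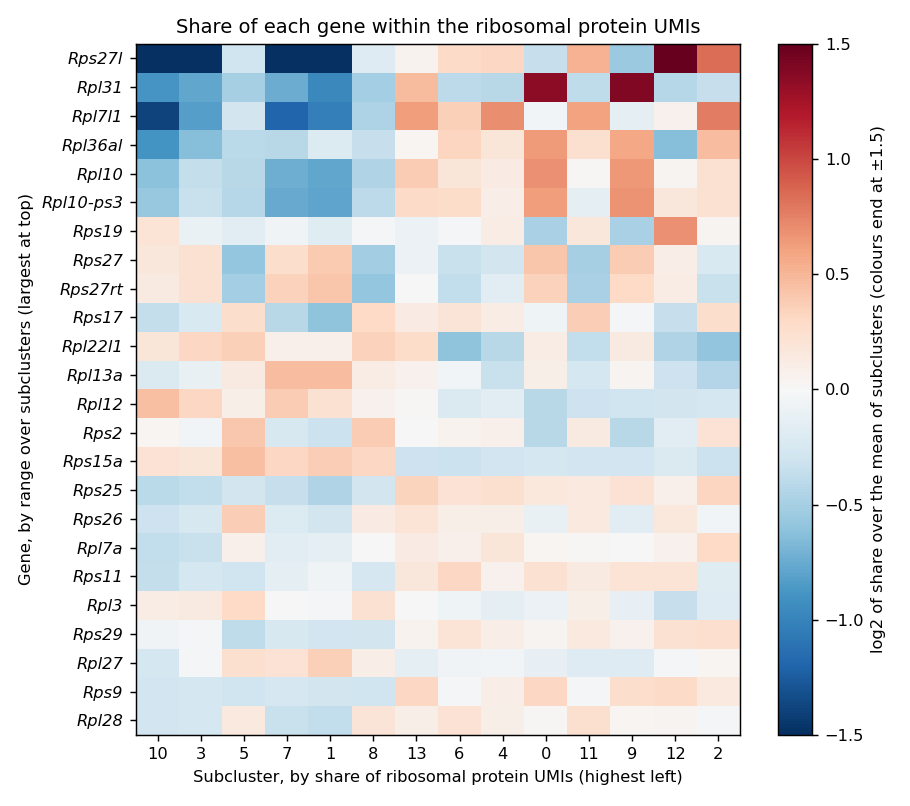
Log2 of each gene's share of the module over its mean across subclusters (colour, ending at ±1.5), for the 24 members with the widest range (rows) in 14 subclusters (columns, highest module share at left). Rps27l is darkest red in subcluster 12 and Rpl31 in subclusters 9 and 0.

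Rpl31, a large-subunit protein near the exit of the peptide tunnel, was high in the plasmacytoid dendritic cell-like Siglech cluster. It had 2858, 2914 and 2829 CPM in subcluster 0 and 3122, 2647 and 3061 CPM in subcluster 9, against 809, 854 and 731 CPM in subcluster 1 and 779, 719 and 735 CPM in subcluster 2. The 2 Siglech subclusters did not overlap with either. Subcluster 13 of the same cluster, with 285 CPM of Siglech against 2207 in subcluster 0, was intermediate at 1682 ± 197 CPM. Rpl31 (chromosome 1, 39367842 to 39371911, plus strand) overlaps Tbc1d8 on the minus strand. Tbc1d8 had 161.7 CPM in subcluster 0, 158.6 in subcluster 9 and 44.4 in subcluster 13. It had 125.0 CPM in subcluster 12 and 94.9 in subcluster 6, where Rpl31 was 833 ± 17.0 and 910 ± 18.2 CPM. Any part of the overlap in the Rpl31 counts was not tested.

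Rpl10, a large-subunit protein needed for the subunits to join, ran the same way at a smaller size. It had 5142, 4969 and 5197 CPM in subcluster 0, against 2896, 2579 and 2194 CPM in subcluster 1. The groups did not overlap. Its pseudogene row Rpl10-ps3 kept the same order of these subclusters at 77.5 ± 4.85 and 39.9 ± 4.10 CPM, and reads of the 2 cannot be separated here. Rpl36al, a copy of Rpl36a, was highest in subcluster 0 (630.9 ± 15.5 CPM) and lowest in subcluster 12 (256.1 ± 19.8 CPM).

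**Figure D3:**
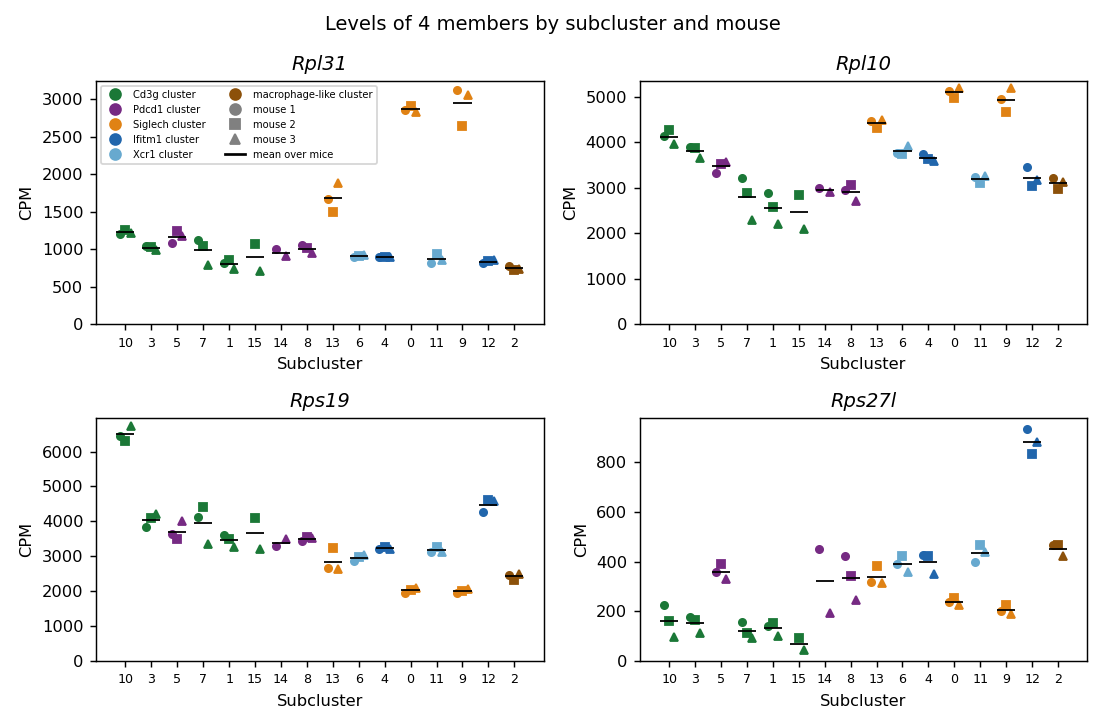
Levels of Rpl31, Rpl10, Rps19 and Rps27l (CPM, y axes) by subcluster (x axes, ordered by module share) with 1 symbol per mouse and a bar at the mean. Rpl31 reaches about 2900 CPM in subclusters 0 and 9, and Rps27l 883 CPM in subcluster 12.

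Subcluster 12 carried the mature dendritic cell genes Ccr7 (1753 CPM), Fscn1 (1451 CPM) and Ccl22 (974 CPM). Set against the type 2 dendritic cell-like subcluster 4, its module share was lower, by a difference of -1.399 ± 0.48 points (19.7 against 21.1%; lower in 3 of 3 mice). Rps27l, a paralog of Rps27 that p53 induces, had 935.6, 832.4 and 881.0 CPM in subcluster 12, against 424.6, 424.2 and 348.7 CPM in subcluster 4. It was past 1.5-fold in every mouse, as was Rpl36al in the other direction: 1 member higher and 1 lower of 80 kept, beside 14.3% and 21% of all genes. Rps19, whose human gene is mutated in Diamond-Blackfan anaemia, had 4257, 4608 and 4579 CPM in subcluster 12, against 3196, 3254 and 3213 CPM in subcluster 4. Of 18 genes of the machinery that builds ribosomes, 13 were past 1.5-fold lower, with a median log2 ratio of -1.20, against -0.14 for the members and -0.20 for all genes. Among them Gar1 and Dkc1, components of the pseudouridylation particles, had log2 ratios of -2.42 ± 0.95 and -1.95 ± 0.74 (SD, n = 3). Of 62 mitochondrial ribosomal proteins, 22 were past 1.5-fold lower and 3 higher. Lists of genes chosen as markers of other cell types also stood apart. Of the CD8 T cell list (Cd8a, Cd8b1, Nkg7, Ccl5 and Gzmk) 5 of 5 genes were higher. Their sums were 2541 to 4867 CPM in subcluster 12 against 421 to 463 CPM in subcluster 4. The sums do not tell which of these genes led them, and a listed gene need not be confined to its cell type. Of the type 1 dendritic cell list 4 of 6 genes were higher, with sums of 521 to 890 against 194 to 216 CPM. The T cell genes Cd3d, Cd3e, Cd3g, Trac and Trbc2 were higher in 5 of 5 means. Their sums overlapped, with 133 to 321 CPM in subcluster 12 against 173 to 288 CPM in subcluster 4. The part of these lists in the result was not tested.

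Within the T cell-like cells, subclusters 5, 8 and 14 of the Pdcd1 cluster, named for the inhibitory receptor of exhausted T cells, were set against subclusters 1, 7, 10 and 15 of the Cd3g cluster. The module share was lower on the Pdcd1 side by 5.33, 3.63 and 1.78 points in mice 1 to 3. The mean difference was -3.58 ± 1.78 points, and -5.53 ± 0.96 points among cells with 7000 to 20000 UMIs. Single subclusters did not all follow it. On the Pdcd1 side subcluster 5 had 29.1%, and subclusters 14 and 8 had 25.6 and 25.1%. On the Cd3g side subclusters 7, 1 and 15 had 28.96, 27.6 and 27.5%, and subcluster 10 had 39.8%. Subcluster 10 gave 41, 22 and 66 of the 162, 219 and 928 Cd3g-side cells in mice 1 to 3. Its part in the difference was not tested. Median depth was 23648 UMIs per cell in the Pdcd1 cluster and 8888 in the Cd3g cluster. The paralog pair Rps27 and Rps27l moved in opposite directions. Rps27 had 2386, 2381 and 2836 CPM on the Pdcd1 side, against 5048, 5173 and 5258 CPM on the Cd3g side. Rps27l had 392.3, 370.9 and 262.0 CPM on the Pdcd1 side, against 181.7, 139.8 and 96.0 CPM on the Cd3g side. Neither pair of groups overlapped, with mean log2 ratios of -1.03 ± 0.12 and 1.32 ± 0.18. Counting Rps27rt, 1 member was past 1.5-fold higher and 2 lower of 81 kept, beside 14.3% and 8.03% of all genes. Mitochondrial ribosomal proteins stood apart in direction: 11 of 68 were past 1.5-fold higher and 0 lower, with a median log2 ratio of 0.40, against -0.14 for the members and 0.10 for all genes.

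The macrophage-like cluster had 3.54 ± 0.52 points less of the module than the Siglech cluster (16.6 against 20.2%). Of 80 members kept, 1 was past 1.5-fold higher and 8 lower in every mouse, beside 17.9% and 24.6% of all genes. The higher one was Rps27l, with 465.5, 467.3 and 421.3 CPM in the macrophage-like cluster, against 238.6, 277.0 and 226.8 CPM in the Siglech cluster. The lower ones included Rpl31 (log2 ratio -1.86 ± 0.05) and Rpl22l1 (-1.001 ± 0.16). Rpl22, which mouse alpha-beta T cells need to develop, and Rpl22l1, its paralog, did not go together. Rpl22 had 1333, 1302 and 1348 CPM in the macrophage-like cluster, against 1203, 1233 and 1203 CPM in the Siglech cluster. Rpl22l1 had 318.5, 295.0 and 328.0 CPM in the macrophage-like cluster, against 613.8, 666.8 and 603.9 CPM in the Siglech cluster.

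Subcluster 10 was set against subcluster 1 after its share had been seen. Of 82 members kept, 14 were past 1.5-fold higher and 0 lower, beside 2.2% and 9.48% of all genes. Rps20 had 9016, 9307 and 9654 CPM in subcluster 10, against 4974, 4790 and 4020 CPM in subcluster 1. Rpl36a had 2296, 2410 and 2502 CPM in subcluster 10, against 1244, 1205 and 1080 CPM in subcluster 1. Rpl13a and Rpl27 were the 2 members lower in every mouse, with log2 ratios of -0.15 ± 0.10 and -0.09 ± 0.07. The memory-like CD8 genes Tcf7 and Ccr7 stood at 349 and 149 CPM in subcluster 10, against 70 and 13 CPM in subcluster 1. Of the 7 macrophage genes 6 were also higher there, with sums of 17.0 to 350.6 CPM against 41.9 to 66.97 CPM; their part in the result was not tested.

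Subcluster 8 was also set against subcluster 5, again after the values were seen. Of 81 members kept, 0 were past 1.5-fold higher and 0 lower, beside 8.1% and 1.41% of all genes. At any size of difference, 73 of the 81 members were lower in every mouse, beside 1193 of all 4405 genes. Rps26 had 3024, 2927 and 2439 CPM in subcluster 8, against 3608, 3800 and 4099 CPM in subcluster 5. The groups did not overlap. Mki67 stood at 540 CPM in subcluster 8 and 37 CPM in subcluster 5.

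Tests were made on cells gated by genes outside the module, with classes matched in number within each mouse and decile of depth. The first gate took CD8-gate T cells (Cd8a or Cd8b1 and a Cd3 UMI, no Cd4 UMI; for this test without subcluster 3) with a UMI of Tcf7, a transcription factor of naive and memory-like T cells, over cells with none (517 cells each). The module share was 31.9, 31.3 and 32.2% in Tcf7-positive cells, against 26.9, 26.3 and 25.5% in cells without a Tcf7 UMI. The groups did not overlap. In edgeR's quasi-likelihood test with Benjamini-Hochberg adjustment, 72 of 84 members tested were higher and 1 lower, beside 5.95% and 5.94% of all genes. The median log2 fold change was 0.36 for the members and 0.00 for all genes.

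The largest rises were in small- and large-subunit proteins alike. Rps20 had 6777, 6515 and 6547 CPM in Tcf7-positive cells, against 4995, 4778 and 4216 CPM in cells without Tcf7 (log2 fold change 0.59 ± 0.05, SE, edgeR adjusted p = 2.5e-05). Rpl12, which helps form the stalk where elongation factors dock, had 4663, 4766 and 5137 CPM in Tcf7-positive cells, against 3368, 3525 and 3542 CPM in cells without Tcf7 (0.57 ± 0.05, edgeR adjusted p = 1.7e-05). Rpl36a, Rps27, Rps29, Rps19, Rps12 and Rps28 followed with log2 fold changes of 0.50 to 0.57. Rps27l was the only member called lower, with 262.2, 217.0 and 120.9 CPM in Tcf7-positive cells, against 314.5, 259.9 and 182.0 CPM in cells without Tcf7 (-0.29 ± 0.08, edgeR adjusted p = 0.042). The 3 mice differed from each other by more than the classes did, and the call was lost when any 1 mouse was left out.

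The rise extended past the symbol rule. Rplp1, which encodes a stalk protein, was higher (0.62 ± 0.05, edgeR adjusted p = 6.2e-06). Of 19 translation factors and other TOP messages, 7 were higher, Eef1b2 the most at 0.50 ± 0.06, and Nap1l1, a histone chaperone, was lower. Of 36 ribosome assembly genes 9 were higher and 0 lower, Polr1a, Nop2 and Myc with the largest folds. Of 77 mitochondrial ribosomal proteins 2 were higher and 1 lower.

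Tcf7-positive cells included 109 cells of subcluster 10, against 2 among cells without Tcf7. Subclusters 5, 8 and 14 of the Pdcd1 cluster gave 43, 45 and 6 Tcf7-positive cells, against 106, 86 and 17 without Tcf7. The classes thus differed in their mix of subclusters, and the part of that mix in the result was not tested. Without the cells of subcluster 10, an alternative added after the data were seen, 51 members were called and the share difference was 3.23 ± 0.71 points, against 5.58 ± 0.97 with them. Without cells holding 2 or more UMIs of another lineage (367 cells each), 32 members were called and the share difference was 4.89 ± 1.82 points. The NK genes were higher in 5 of 5 cases, with sums of 71.4 to 121.9 CPM in Tcf7-positive cells against 37.0 to 45.02 CPM in cells without Tcf7. The exhausted-like CD8 genes were higher in 0 of 5 (277.1 to 510.6 against 521.6 to 1031 CPM) and the cycling genes in 0 of 4 (397.8 to 541.2 against 504.7 to 738.4 CPM). The part of these lists in the result was not tested.

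**Figure D4:**
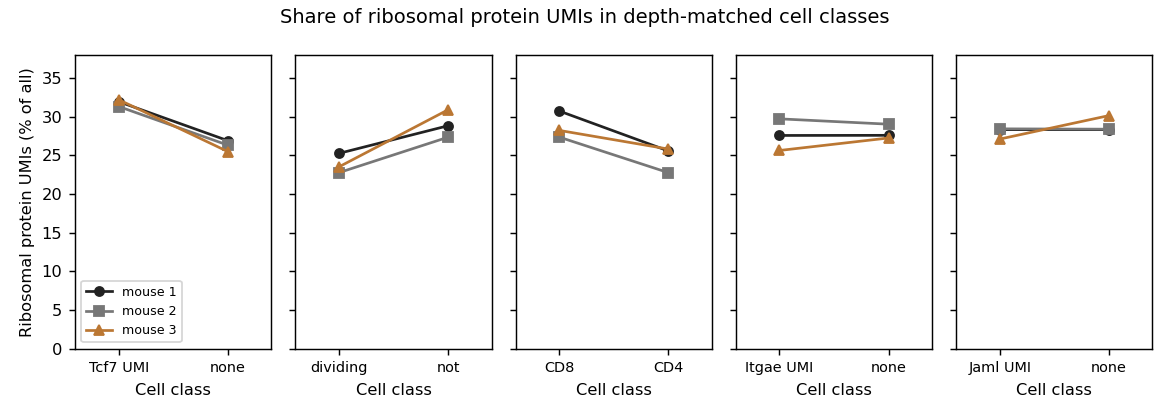
Percent of UMIs from ribosomal protein genes (y axes) in pairs of depth-matched cell classes (x axes), with a line for each of 3 mice. Every mouse is higher in Tcf7-positive and in CD8-gate cells and lower in dividing cells, while the Itgae and Jaml pairs cross or coincide.

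Dividing cells went the other way. Cells of the Pdcd1 cluster with UMIs of both Mki67 and Top2a, genes of the dividing cell, had 25.2, 22.7 and 23.5% of the module, against 28.8, 27.3 and 30.9% in matched cells with neither (118 cells each). Of 81 members tested, 53 were lower and 0 higher, beside 3.39% and 8.08% of all genes, and the median log2 fold change was -0.32. Rps26 had 2950, 2599 and 2396 CPM in dividing cells, against 3618, 3606 and 3762 CPM in cells with neither (log2 fold change -0.53 ± 0.10, SE, edgeR adjusted p = 0.00073). Rps15a had 6344, 5120 and 5557 CPM in dividing cells, against 7502, 7082 and 8366 CPM in cells with neither (-0.49 ± 0.09, edgeR adjusted p = 0.00055). In both the groups did not overlap. Rps2, Rps12, Rps27a, Rpl35, Rpl36a and Rps27rt fell by 0.45 to 0.68 on the log2 scale. Matching kept 118 of 467 dividing cells. Without matching (467 against 170 cells), Rps2, Rps12, Rps27a, Rpl35 and Rpl36a had log2 fold changes of only -0.19 to -0.02 and lost their call. Rps27rt (-0.72), Rps26 (-0.27) and Rps15a (-0.42) kept theirs.

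Of the 19 translation factors and TOP messages 6 were lower in dividing cells, among them Naca and Eef1a1, and so were Rplp0 and Rpsa, ribosomal proteins outside the rule. Of 72 mitochondrial ribosomal proteins 2 were higher, Mrpl51 and Mrpl18. The dividing cells came mostly from subcluster 8 (72 cells) and the others from subcluster 5 (112 cells), so division and subcluster cannot be told apart. The count of calls was small in some settings: 2 with DESeq2, 3 without mouse 2, 18 without the mouse as a block and 1 when 2 UMIs of each gene were asked for. Rps26 kept its call in all 14 alternatives.

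CD8-gate cells had 30.7, 27.3 and 28.2% of the module, against 25.6, 22.7 and 25.8% in CD4-gate cells (59 cells each), which had a Cd4 and a Cd3 UMI and none of Cd8a or Cd8b1. Subcluster 3 gave 16 of the CD8-gate and 6 of the CD4-gate cells. Of 77 members tested 2 were higher and 0 lower, beside 0.53% of all genes each way. They were Rps15a (log2 fold change 0.59 ± 0.10, SE, edgeR adjusted p = 0.014) and Rpl32 (0.47 ± 0.09, edgeR adjusted p = 0.033). All 77 fold changes were positive, with a median of 0.30, beside 1233 positive ones among all 2455 genes. Of the 77 members 53 had an unadjusted p under 0.05, beside 284 of all 2455 genes. No member was called without the mouse as a block or without cells holding UMIs of another lineage, and DESeq2 called 9. The share difference was 4.05 ± 1.45 points, and 2.36 ± 1.90 with a gate at 2 UMIs. Without the cells holding UMIs of another lineage the share was higher in 2 of 3 mice; in mouse 3 it was 24.2% in CD8-gate cells, against 25.8% in CD4-gate cells. Plasmacytoid dendritic cell genes summed to 164 to 412 CPM in CD8-gate cells, against 287 to 1218 CPM in CD4-gate cells, with 0 of 7 higher in CD8-gate cells. Of the cycling genes 0 of 4 were higher (56.5 to 437.1 against 97.6 to 1819 CPM), and of the type 2 dendritic cell genes 0 of 5 (7.17 to 28.2 against 0 to 123.1 CPM). The part of these lists in the result was not tested.

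For Itgae, which encodes the residency integrin CD103, no member passed the test, and for Jaml 1 did. CD8-gate cells with an Itgae UMI had 27.6, 29.7 and 25.6% of the module, against 27.6, 29.0 and 27.2% in cells with none (103 cells each, of which subcluster 3 gave 7 and 8). Of 82 members tested edgeR called 0, and 0 had an unadjusted p under 0.05, beside 0.0189% of all genes called higher and 0% lower. DESeq2 also called 0. The share difference was -0.31 ± 1.18 points. When 2 UMIs of Itgae were asked for (26 cells each), it was -5.86 ± 2.80 points, lower in 3 of 3 mice. Mouse 1 gave only 3 cells per class there. The members then had a median log2 fold change of -0.39, and 0 of them were called.

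CD8-gate cells with a Jaml UMI had 28.3, 28.4 and 27.1% of the module, against 28.3, 28.4 and 30.1% in cells with none (610 cells each, of which subcluster 3 gave 51 and 52). Mice 1 and 2 were level and mouse 3 was lower, a mean difference of -0.995 ± 1.76 points. In another draw, with 2 UMIs of Jaml asked for, with unmatched cells and without cells holding UMIs of another lineage it was -1.17, -1.42, -1.25 and -1.38 points, lower in 3 of 3 mice each time. Subcluster 10 gave 24 of the Jaml-positive cells and 46 of those with none, and subcluster 15 gave 18 and 2. The part of this mix in the result was not tested. Of the 85 members tested 81 had a negative fold change, beside 4770 of all 9471 genes. In the test 0 members were higher and 1 lower, beside 0.718% and 0.137% of all genes. That member was Rps27l, with 302.2, 247.1 and 133.9 CPM in Jaml-positive cells, against 363.9, 337.7 and 159.8 CPM in cells with none (log2 fold change -0.33 ± 0.07, SE, edgeR adjusted p = 0.039). It was lower in 3 of 3 mice, and the call was lost in 9 of 14 alternatives.

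**Figure D5:**
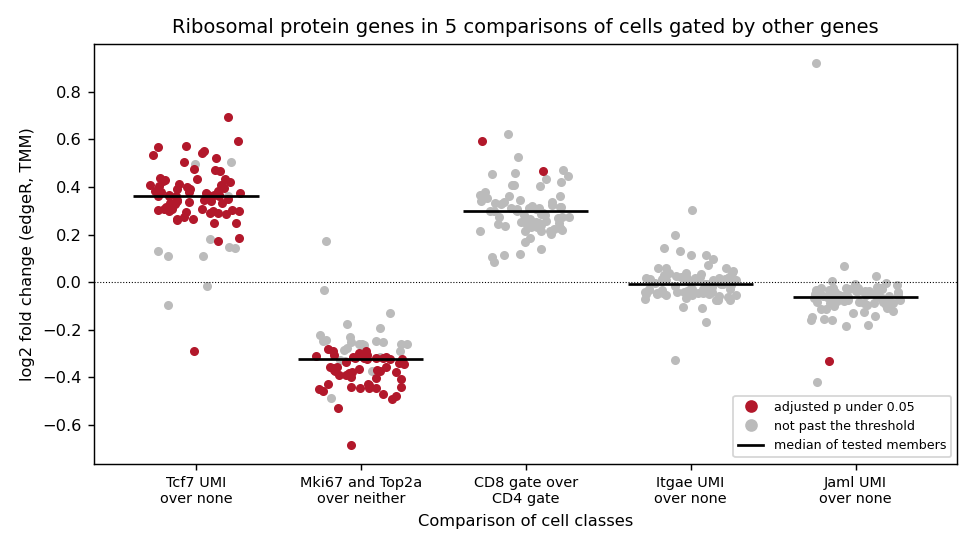
Log2 fold change of each tested ribosomal protein gene (points, y axis) in 5 comparisons of gated cells (x axis), red where the adjusted p was under 0.05, with a bar at the median of the tested members. The medians are 0.36, -0.32, 0.30, -0.01 and -0.06 from left to right.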

How the data were processed

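One gene expression library (10x Genomics 5' v2, per the labels) of 5976 cells was analysed; its antibody-tag library had no table used here beyond the hashtags. Per the submitters' processing notes, Cell Ranger 3.1.0, Seurat 3.1.5 and mm10 were used. The deposited values are UMI counts with no normalization, and the authors' annotation gives hashtags, clusters (resolution 0.1), subclusters (0.8) and a percent of ribosomal UMIs. The 5968 cells with a hashtag were summed per mouse and class. Clusters and subclusters needed at least 10 cells in a mouse. Gated classes had no such minimum and went down to 3 cells per class, in mouse 1 for Itgae at 2 UMIs. Mice had 2445, 1184 and 2339 cells and 48047914, 22004939 and 33009303 UMIs. The mice share 1 library, so p-values measure the spread between mice within it.

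Gated classes were tested with edgeR 4.0.16 (R 4.3.3; quasi-likelihood F test, TMM, filterByExpr, mouse as a block because both classes come from the same mouse), adjusted over all genes, threshold 0.05. On simulated counts, 2-fold changes were recovered for 100% (Tcf7, Jaml), 87% (dividing), 66% (CD8 over CD4) and 74% (Itgae) of genes. The simulation gave all genes the same dispersion and the mice no difference. Changes under 2-fold, the size of the member changes printed for the tests, were not simulated. Class contrasts count genes that reach 30 CPM in one class and are past 1.5-fold in every mouse. Clustering without the members used scanpy 1.11.5 with leidenalg 0.10.2 (2000 variable genes, 30 components, 15 neighbours). No doublet caller was run. In an alternative, cells with UMIs of another lineage were left out instead. In the Cd3g and Pdcd1 clusters these were cells with 2 or more UMIs of Cd79a, Lyz2 and C1qa together. In the other clusters they had 2 or more of Cd3d, Cd3e and Cd3g together. No plasmacytoid dendritic or NK cell gene was part of this filter.

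The text names a fixed set of paralog pairs, the 5 highest and lowest levels, the 8 widest ranges within the module, up to 8 called genes per test and direction, 5 per class contrast and 3 per related list, from which the printed ones were picked. The members, lists and comparisons were chosen with earlier results of these data known. Alternatives were other scalings, no filter, DESeq2 1.42.0, no block, a threshold of 0.01, gates at 2 UMIs, unmatched cells, another draw and each mouse left out. Some genes and the list totals that include them are not reported here.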

Additional observations from a re-analysis of the deposited data

How the results depend on the processing

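The share differences between the Pdcd1 and Cd3g sides, between the macrophage-like and Siglech clusters and between subclusters 12 and 4 kept their direction in every alternative run. The first 2 moved by more than the spread between mice among cells with 7000 to 20000 UMIs, to -5.53 points (Pdcd1 side minus Cd3g side) and -4.68 points (macrophage-like minus Siglech). Leaving out 1 mouse gave -4.48 to -2.70, -3.79 to -3.27 and, for subcluster 12 minus subcluster 4, -1.63 to -1.15 points. Share differences of gated cells moved by more than that spread for Itgae, to -5.86 points with a gate at 2 UMIs, for dividing cells, to -3.04 points with unmatched cells, for CD8 over CD4, to 2.36 points with a gate at 2 UMIs, and for Tcf7, to 6.83 points with a gate at 2 UMIs and 3.23 points without subcluster 10. The cluster rebuilt without the members that holds most of subcluster 10 had 34.6%, and leaving out 1 mouse gave 39.3 to 40.1% for subcluster 10. Calls for Tcf7 (73) were 38 with unmatched cells, 32 without cells holding UMIs of another lineage and 57 to 70 with 1 mouse left out. Calls in dividing cells (53) were 2 with DESeq2, 18 with no replicate block, 19 at a threshold of 0.01, 1 with a gate at 2 UMIs, 21 with unmatched cells, 29 in another draw, 18 without cells holding UMIs of another lineage and 3 to 35 with 1 mouse left out. Calls for CD8 over CD4 (2) were 4 with scaling on other genes, 9 with DESeq2, 0 with no replicate block, 0 at a threshold of 0.01, 1 with a gate at 2 UMIs, 1 in another draw, 0 without cells holding UMIs of another lineage and 1 to 2 with 1 mouse left out. The single Jaml call was 0 with total UMIs, no filter, DESeq2, no replicate block, a threshold of 0.01, unmatched cells and without cells holding UMIs of another lineage, and 0 to 1 with 1 mouse left out. Itgae gave 0 calls throughout. The cause of these changes was not tested. Of 289 values for 20 named genes under alternatives, 226 kept their call, 63 lost it and 0 turned direction.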
